A study of Nannochloropsis oceanica strain IMET1 with 6 samples.

Results

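The 351 contacts described here join bins of different chromosomes in *Nannochloropsis oceanica* IMET1, a single-celled marine alga, and were chosen by the measured values of each bin pair and by its position. A Hi-C library records, as read pairs, pieces of DNA that lay close together in the nucleus, and a trans-interaction is a pair of 1-kb bins on different chromosomes that the authors called significant. Selected on these lists were the trans-interactions whose bins both had a bias factor above 0, which is the correction of a bin for how readily it yields contacts and is near 1 for an average bin. Pairs with both bins on chromosomes 3, 9 and 15 were left out, as were pairs with both bins within 20 kb of a chromosome end. This kept 351 of 2203 listed trans-interactions, or of 12649 listed interactions in cis and trans, and they were made of 306 different bin pairs, because some were listed in more than 1 group. Since the lists hold only called pairs, the contact counts, folds and significance of the selected contacts are given as a description and without a test. The same contacts are called selected contacts throughout.

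All 3 groups were cultures of strain IMET1. Nitrogen-replete (NR) cells in the logarithmic phase made up group C0. The nitrogen-deprived (ND) cells were washed, moved to nitrogen-free medium and taken after 1 day (N1) or 2 days (N2). C0 was harvested from the seed culture itself, under brighter light than N1 and N2 received after the transfer, so nitrogen, light, washing and culture time cannot be told apart between C0 and the other groups. Each group had 2 biological replicates, 6 libraries in all, but the authors pooled the replicates before calling interactions. Each group therefore has 1 list and 1 value, no test between groups was possible, and the intervals below (95%, exact Poisson for counts and exact binomial for shares) cover counting error only. The libraries came from whole cultures, so a contact held by more cells cannot be told apart from a contact held more often in each cell.

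In eukaryotic nuclei most contacts of a locus are with its own chromosome, and contacts between chromosomes are rarer and are often found where ends or centromeres of several chromosomes lie together. Trans contacts away from such regions are harder to measure, because the random ligation of any bin with any other gives a low background over a very large number of possible pairs. In these libraries, the paper's counts of valid read pairs were higher in trans than in cis in both replicates of C0 and N2. They were lower in trans in both replicates of N1. When nitrogen runs out, *Nannochloropsis* slows its division and photosynthesis and stores carbon as triacylglycerol, and the comparison of NR with ND cells asks how chromatin contacts differ between these states. Bins are given by chromosome and by first and last base, in the coordinates of the deposited lists. No gene is named, because nuclear genes of this genome were not used here.

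The selected contacts were a small part of the trans lists at C0 and N2 and nearly the whole list at N1. C0 had 89 of them (95% interval 71.5 to 110), which was 15.2% of its 587 trans-interactions (12.4% to 18.3%). N1 had 87 (69.7 to 107), or 88.8% of 98 (80.8% to 94.3%). N2 had 175 (150 to 203), or 11.5% of 1518 (9.96% to 13.2%). The rest of the trans list consisted of different things in each group. At C0, 218 pairs joined 2 chromosome ends, 82 lay among chromosomes 3, 9 and 15, and 198 joined bins without a usable factor. At N1 these were 3, 3 and 5, and at N2 39, 42 and 1262.

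The groups differed in depth, which sets how few contacts were enough for a call. The contact count expected for an average trans bin pair, recovered from the deposited p-values, was 0.0426 in C0, 0.0137 in N1 and 0.0293 in N2, so that C0 was 3.12 times and N2 2.14 times as deep as N1. An average bin pair needed 5 contacts to be listed at C0, and 4 in either ND group. A pair of usable bins that was not listed could have had at most 5 contacts in C0, 4 in N1 and 5 in N2. Nearly equal numbers at C0 and N1 were thus obtained at very different depths. Scaled to the depth of N1, 1 of the 89 contacts of C0 and 22 of the 175 of N2 still had 3 contacts or more.

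Most selected contacts rested on very few read pairs. The median was 4 contacts in each group. Exactly 4 contacts were found for 54 of 89 pairs in C0 (60.7%), 48 of 87 in N1 (55.2%) and 97 of 175 in N2 (55.4%), and 5 or fewer for 85.4%, 83.9% and 78.3%. Added up, the counts came to 417 in C0, again 417 in N1 and 911 in N2. The highest count was 10 in C0, 18 in N1 and 37 in N2, so the groups differed most in the upper tail, with 1, 3 and 7 pairs of at least 10 contacts.

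**Figure D1:**
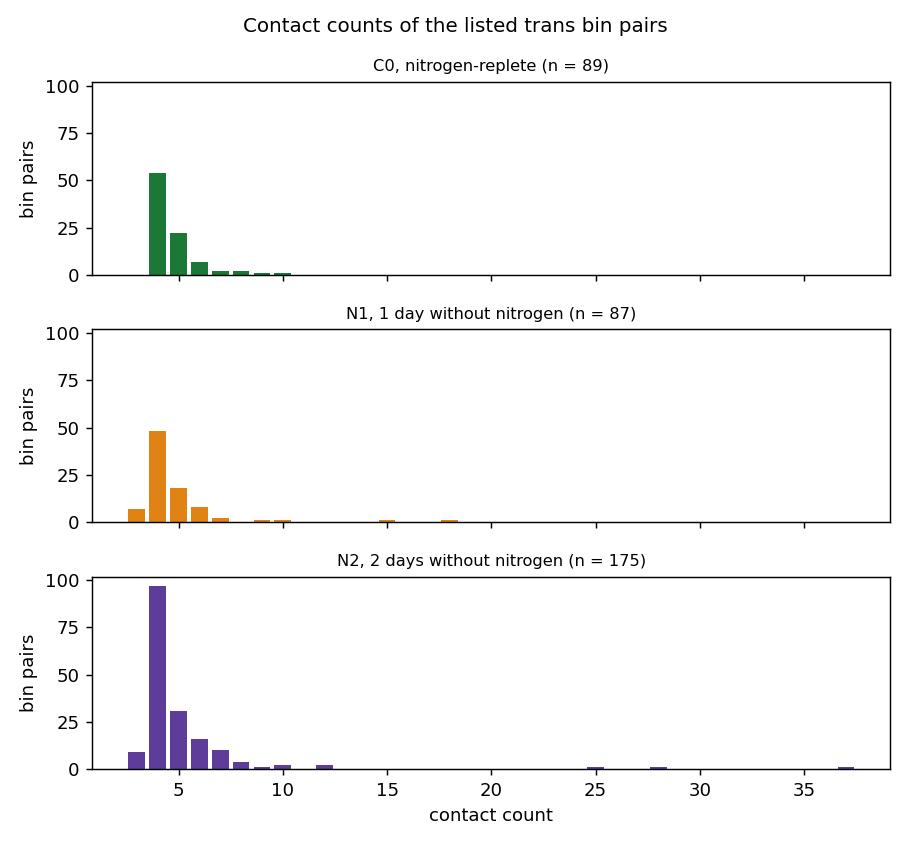
Number of selected bin pairs (y axis) by contact count (x axis) in each group, with 89 pairs at C0, 87 at N1 and 175 at N2. Most pairs had 4 or 5 contacts in every group, and the 3 pairs above 20 contacts were all at N2.

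Relative to the expected count, the selected contacts lay far above the background, and further above it in the shallower groups. The median fold over the expected count was 116 in C0 (interquartile range 100 to 149), 410 in N1 (269 to 594) and 168 in N2 (114 to 256). This order follows the depth, since 4 contacts were 93.9, 293 and 137 times what an average bin pair of C0, N1 and N2 was expected to share, and few listed pairs had fewer. The fold is therefore set beside the count but not compared between groups over the whole list. The median bias factor of the bins was 0.936 in C0, 0.915 in N1 and 0.963 in N2, and the factors spanned nearly the whole allowed range from 0.5 to 2 in each group. At the limit of the selection, 6 pairs at C0, 1 at N1 and 4 at N2 lay just inside, with the bin farther from its end at 20 to 25 kb, and 17, 0 and 5 pairs lay just outside, at 15 to 20 kb.

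Few bin pairs recurred between NR and ND cells, and more recurred between the ND groups. C0 and N1 shared 5 bin pairs, which was 5.62% of the selected contacts of C0 (95% interval 1.85% to 12.6%), against 0.852% of all C0 trans-interactions also listed at N1, and 5.75% of those of N1 (1.89% to 12.9%) against 5.1% of all. C0 and N2 shared 11, which was 12.4% at C0 (6.33% to 21.0%) against 9.03% and 6.29% at N2 (3.18% to 10.97%) against 3.49%. N1 and N2 shared 33, which was 37.9% at N1 (27.7% to 49.0%) against 35.7% and 18.9% at N2 (13.4% to 25.5%) against 2.31%. As shares of N1, whose list was made up almost wholly of selected contacts, the values were near those of all trans-interactions. The selected contacts held all 5 trans pairs shared by C0 and N1 and 33 of the 35 shared by N1 and N2. None of the 300 other C0 pairs with usable factors was listed at N1, and 2 (0.667%) were listed at N2. Of the 198 C0 pairs without usable factors, 40 were listed at N2, a larger part than of the selected contacts, and none at N1.

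Of the 306 bin pairs, 77 were listed at C0 alone, 53 at N1 alone and 135 at N2 alone. The 41 others were 4 pairs in all 3 groups, 1 at C0 and N1, 7 at C0 and N2, and 29 at N1 and N2. Most of all trans-interactions were not shared either. Of all those at C0, 9.03% were also listed at N2, of those at N2 3.49% at C0, and of those at N1 35.7% at N2. Allowing each bin to lie up to 5 bins away raised the C0 contacts with a match at N2 from 11 to 13 and the N1 contacts with a match at N2 from 33 to 36, so most of the unshared pairs had no near match either. Absence from a list does not show that a pair had no contacts. Of the 164 selected contacts of N2 that were missing at C0, 29 had usable factors for both bins in the C0 lists, 6 had a bin without one, and for 129 a factor could not be read because a bin did not occur in any C0 list. For C0 contacts missing at N2, 17 of 78 had both factors. The other comparisons had far fewer. Both factors were known for 3 of 84 C0 contacts and 5 of 142 N2 contacts missing at N1. For N1 contacts they were known for 1 of 82 missing at C0 and 2 of 54 missing at N2.

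Pairs with higher counts recurred more often. Among the N1 contacts with at least 6 read pairs, 10 of 14 were also listed at N2 (71.4%), against 23 of 73 with fewer (31.5%). Among the C0 contacts, 6 of 13 with at least 6 read pairs were also listed at N2 (46.2%), against 5 of 76 with fewer (6.58%). A low count is nearer the threshold in the other group, so these shares describe how readily a pair was listed again.

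The 4 bin pairs listed in all 3 groups joined 7 bins on 7 chromosomes. The pair of chr24:103001-104000 with chr30:333001-334000 had 8 contacts in C0, 15 in N1 and 28 in N2. The deeper C0 library pool thus gave the lowest count of the 3, and the folds over the expected count were 214 (92.3 to 421), 2346 (1313 to 3870) and 889 (591 to 1285), without overlap between the interval of C0 and those of N1 and N2. The fold at N1 was the highest of all selected contacts. The pair of chr1:1378001-1379000 with chr29:545001-546000 had 9, 10 and 12 contacts, at folds of 113 (51.6 to 214), 545 (261 to 1002) and 250 (129 to 437).

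The bin chr29:545001-546000 had a second partner in all 3 groups, chr12:20001-21000, with 4, 5 and 8 contacts at C0, N1 and N2. The third side of this triangle, between the chromosome 1 and chromosome 12 bins, was not listed in any group. Both bins had usable factors throughout, so that it had at most 4 contacts in C0, 3 in N1 and 3 in N2. The fourth pair, chr18:232001-233000 with chr21:306001-307000, was the most even, with 6, 6 and 7 contacts at folds of 97.8, 259 and 161.

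The highest count of all was for chr5:487001-488000 with chr7:1083001-1084000, which had 37 contacts at N2 and 10 at C0. These were the highest counts of both lists, at 711 times the expected count at N2 (500 to 980) and 197 times at C0 (94.5 to 362), and both bins lay over 200 kb from any end. The pair was not listed at N1. Neither bin occurred in any N1 list, so its factors there could not be read. With usable factors the pair had at most 4 contacts at N1, whereas the N2 count scaled to the depth of N1 would be 17.3 and the C0 count 3.21. The chromosome 5 bin had a factor of 1.81 at C0 and 1.96 at N2, near the upper limit of 2. Whether its factor was usable at N1 is not known, so the absence there cannot be read as a drop.

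The other 6 pairs listed at C0 and N2 only also had at least as many contacts at N2 as at C0. The pair of chr6:1321001-1322000 with chr18:67001-68000 had 8 at C0 and 12 at N2, at folds of 201 (86.8 to 396) and 616 (318 to 1077). The pair of chr17:57001-58000 with chr27:25001-26000 had 6 and 10, at folds of 281 (103 to 611) and 890 (427 to 1636). The intervals of the folds overlapped between C0 and N2 in both. The remaining 4 pairs joined chromosomes 1 and 25, 1 and 5, 3 and 24, and 9 and 24, with 4 or 5 contacts at C0 and 4 to 7 at N2. Those with 4 at C0 needed at least 4 to be listed at N2.

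Over the 11 pairs shared by C0 and N2, N2 had the higher count in 9, the same count in 2 and the lower count in none. The counts summed to 68 at C0 and 134 at N2, although N2 was 0.686 times as deep. Over the 33 pairs shared by N1 and N2, N2 was higher in 21, equal in 6 and lower in 6, and the sums were 185 and 241, a ratio of 1.30 at a depth ratio of 2.14. Relative to depth, the shared pairs thus stood higher at N2 than at C0 in all 11 cases. For the 5 of these 11 with fewer than 6 contacts at C0, being listed at N2 already fixed this outcome by count. Those with 4 contacts at C0 could not have a lower raw count at N2 either, because they needed at least 4 to be listed there. The pairs shared by N1 and N2 stood higher at N2 in 2 of 33 by count over the depth ratio. By fold over the expected count, which also takes in the bias factors of each group, they did so in 8 of 33. The 2 by count were chr4:1118001-1119000 with chr8:1286001-1287000, with 4 contacts at N1 and 10 at N2 but a lower fold at N2 (457 and 397), and chr22:561001-562000 with chr30:359001-360000, with 4 and 9 and a higher fold (180 and 485). Shared pairs had to pass the threshold in both groups, which in a shallow group asks for a high count relative to depth.

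**Figure D2:**
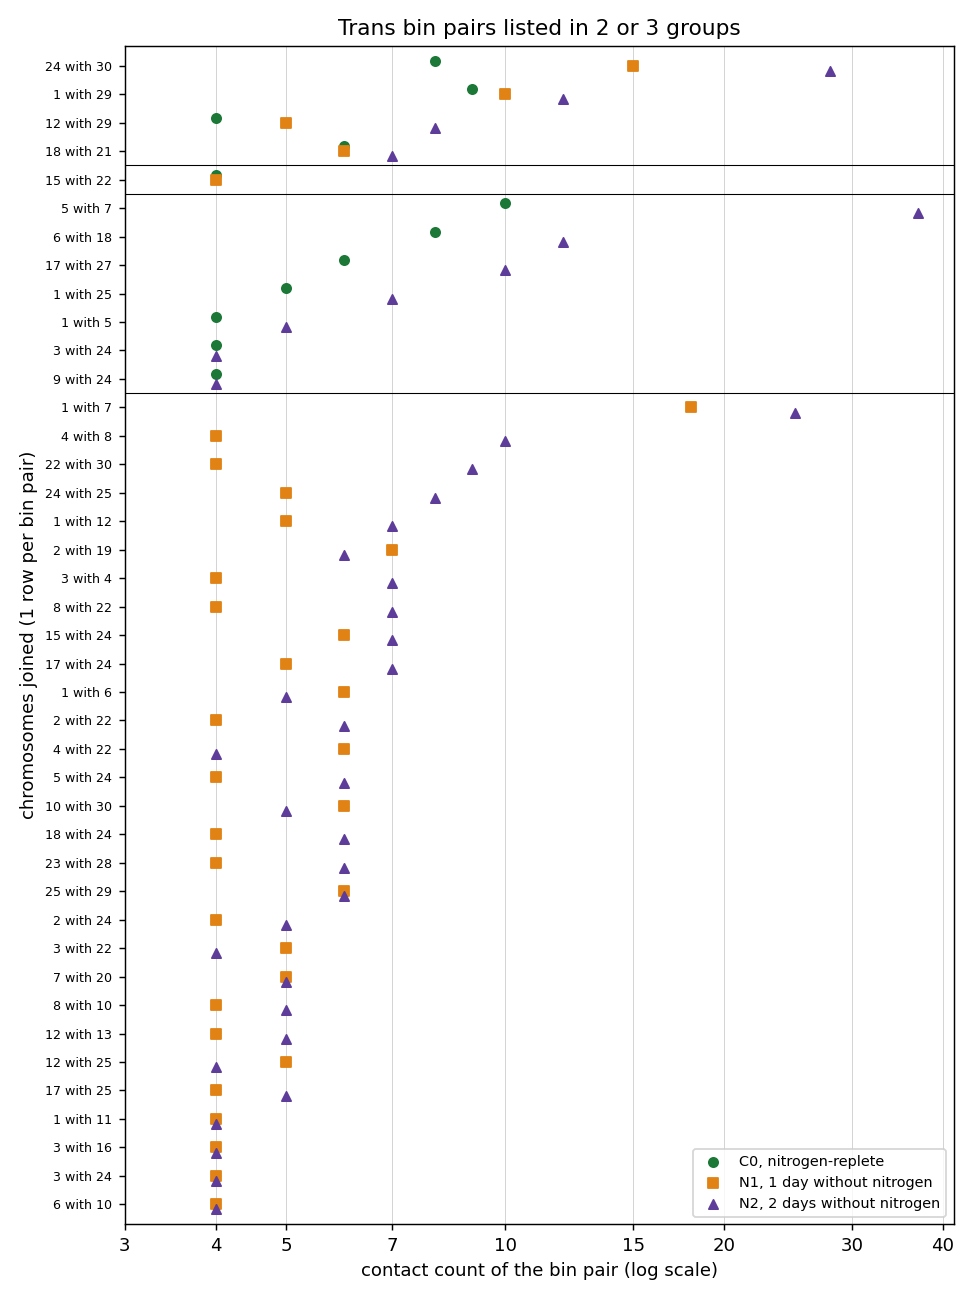
Contact counts (x axis, log scale) of the 41 selected bin pairs listed in 2 or 3 groups, 1 row per bin pair, named by the chromosomes joined; circles, squares and triangles are C0, N1 and N2, and a missing symbol means not listed. From top to bottom, lines part pairs in all 3 groups, at C0 and N1, at C0 and N2, and at N1 and N2. N2 lay at or to the right of C0 in all 11 rows that hold both. For rows with 4 contacts at C0 the threshold fixed this, because those pairs needed at least 4 contacts to be listed at N2.

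The 29 pairs listed in both ND groups but not in NR cells included the highest count of N1. The pair of chr1:1445001-1446000 with chr7:4001-5000 had 18 contacts at N1, 1087 times the expected count (644 to 1718), and 25 at N2, 427 times (276 to 630). Its absence at C0 cannot be read as a lack of contact, because the chromosome 1 bin had no usable factor at C0. The other 28 had a bin whose factor at C0 was not known, and with usable factors each had at most 5 contacts at C0. Over the 29 pairs the median was 4 contacts at N1 and 6 at N2. Scaled to the depth of C0, 4 contacts at N1 would be 12.5, with a wide counting error. Any pair listed at N1 with 4 contacts and not listed at C0 gives this gap. It follows from the thresholds and from how the 29 pairs were picked, so it does not show a gain under ND. One pair of N1 that was not shared, chr10:61001-62000 with chr27:65001-66000, had 9 contacts there, the fourth highest count of that list.

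The selected contacts of C0 included the largest connected set of any group, made of 8 contacts among 8 bins of chromosomes 1, 4, 6, 7 and 18, with 50 read pairs. The bin chr1:1444001-1445000 joined 3 bins near the left end of chromosome 4, starting at 3001, 4001 and 9001, with 7, 7 and 6 contacts. The bin chr18:67001-68000 joined 4 bins, the most partners of any selected bin, namely chr6:1321001-1322000 with 8 contacts, chr7:768001-769000 with 6, chr4:9001-10000 with 6 and chr4:27001-28000 with 5. The bins chr4:4001-5000 and chr7:768001-769000 closed the set with 5 contacts. The next largest connected set of C0 had 2 contacts, and the largest had 2 at N1 and 4 at N2.

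The chromosome 1 locus of this set had trans partners in ND cells too, but the bins that could be compared differed between groups. At C0, chr1:1445001-1446000 had no usable factor and was listed outside the selected contacts with the first bin of chromosome 4, at 5 contacts, and chr1:1444001-1445000 did not occur in the N1 lists. At N1, chr1:1445001-1446000 joined chr7:4001-5000 with 18 contacts and no other bin. At N2 it joined the same chromosome 7 bin with 25 contacts and the left end of chromosome 4, at 3001 to 4000 and at 27001 to 28000, with 4 contacts each, and the neighbouring chr1:1444001-1445000 joined chr7:4001-5000 with 4. These 4 contacts were one of the largest connected sets of N2, with 37 read pairs. The bin chr7:4001-5000 had a usable factor at C0 and no listed trans partner among the selected contacts there. The bin chr18:67001-68000 kept chromosome 6 as its partner at N2 and had a different one at N1, chr8:622001-623000, with 4 contacts. The left end of chromosome 4, up to 28000, had 6 selected contacts at C0, none at N1 and 2 at N2.

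Otherwise the selected contacts formed few links with each other. Of the bins, 163 of 169 in C0 (96.4%), 164 of 169 in N1 (97.0%) and 315 of 331 in N2 (95.2%) had 1 partner only. At N2 the bins with 3 partners were the chromosome 1 bin above, chr10:74001-75000, which joined chr8:742001-743000, chr30:279001-280000 and chr26:589001-590000 with 5 contacts each, and chr28:15001-16000, with 4 contacts to each of chromosomes 3, 13 and 18. No bin of N1 exceeded 2 partners. The chromosome 10 bin was seen at N1 with its chromosome 8 and chromosome 30 partners too, at 4 and 6 contacts.

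The selected contacts were also isolated along the chromosomes. Another listed contact within 5 bins on both sides was found for 3 of 89 at C0 (3.37%, 95% interval 0.701% to 9.54%), 2 of 87 at N1 (2.30%) and 6 of 175 at N2 (3.43%). Pairs that joined 2 chromosome ends at C0 had such a neighbour in 34 of 218 cases (15.6%, 11.05% to 21.1%), and pairs among chromosomes 3, 9 and 15 at C0 in 13 of 82 (15.9%, 8.72% to 25.6%). At N2 these classes had a neighbour in 0 of 39 and 4 of 42 cases (9.52%, 2.66% to 22.6%), and at N1 they held 3 pairs each, none with a neighbour. The larger share of pairs of 2 ends was thus seen at C0 and not at N2, and the differences were not tested, because pairs of 1 list share libraries and, at ends, bins. The pair of chromosomes 5 and 7 with 37 contacts and the pair of chromosomes 24 and 30 with 28 had no such neighbour, while the pair of chromosomes 1 and 7 with 25 had 1, the neighbouring chromosome 1 bin with 4 contacts.

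Although pairs of 2 chromosome ends had been left out, the selected contacts of C0 lay near the ends more often than bin positions give. Both bins lay within 100 kb of an end in 33 of 89 contacts at C0 (37.1%, 27.1% to 48.0%), in 9 of 87 at N1 (10.3%, 4.84% to 18.7%) and in 28 of 175 at N2 (16%, 10.9% to 22.3%), against 3.64% of possible pairs. Possible pairs are all trans bin pairs that the limits on ends and chromosomes leave in. They include bins without a usable factor, which could not be selected, so where usable bins lie was not taken into account. The share was above the positional share in every group and was largest at C0. One bin within 20 kb of an end was found in 21 contacts in C0 (23.6%, 15.2% to 33.8%), 8 in N1 (9.20%, 4.05% to 17.3%) and 27 in N2 (15.4%, 10.4% to 21.6%), against 7.51% of possible pairs. This order depended on the width of the end: with 50 kb in place of 20 kb the shares were 19.1%, 19.3% and 18.9%. No positional share is given for 50 kb, so whether these shares exceed it cannot be read. At C0 the other bin of these 21 lay between 20 and 100 kb from an end in 17 cases (19.1% of all 89) and farther off in 4 (4.49%), against 1.21% and 6.29% of possible pairs.

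The bins followed this by distance class. Up to 20 kb from an end lay 11.8% of the bins at C0, 4.60% at N1 and 7.71% at N2, against 3.75% of bins in possible pairs, and over 20 to 50 kb 19.1%, 9.20% and 10%, against 5.86%. Over 50 to 100 kb N1 was highest, with 16.1% against 11.2% at C0, 10.9% at N2 and 9.76% of possible bins. All groups thus stood above the positional share in each class up to 100 kb, but not all by much. The excess was small for N1 up to 20 kb, with 8 of 174 bins, and for C0 and N2 over 50 to 100 kb. No intervals were computed for these classes, so such small excesses may be counting error. Over 100 to 200 kb the order was different, with 10.7% in C0, 27.6% in N1 and 24.6% in N2, against 19.5%. Beyond 200 kb all groups had less than the 61.1% of possible bins, at 47.2%, 42.5% and 46.9%. Of the ends, the left end of chromosome 4 was used most at C0, in 5 contacts within 20 kb, while the left end of chromosome 24 was used most at N2, in 4. The 2 bins of a contact lay at a like distance from their nearest ends, within 20 kb of each other, in 28.1% of contacts in C0 (19.1% to 38.6%), 13.8% in N1 (7.34% to 22.9%) and 10.3% in N2 (6.21% to 15.8%), against 6.17% of possible pairs. Bins that both lie near an end are often alike in this distance too. The share was not separated from that nearness, so by itself it does not show a matching of distances. Contacts well inside the chromosomes, with both bins over 200 kb from any end, were 33 of 89 in C0 (37.1%), 20 of 87 in N1 (22.99%) and 51 of 175 in N2 (29.1%), against 37.2%.

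**Figure D3:**
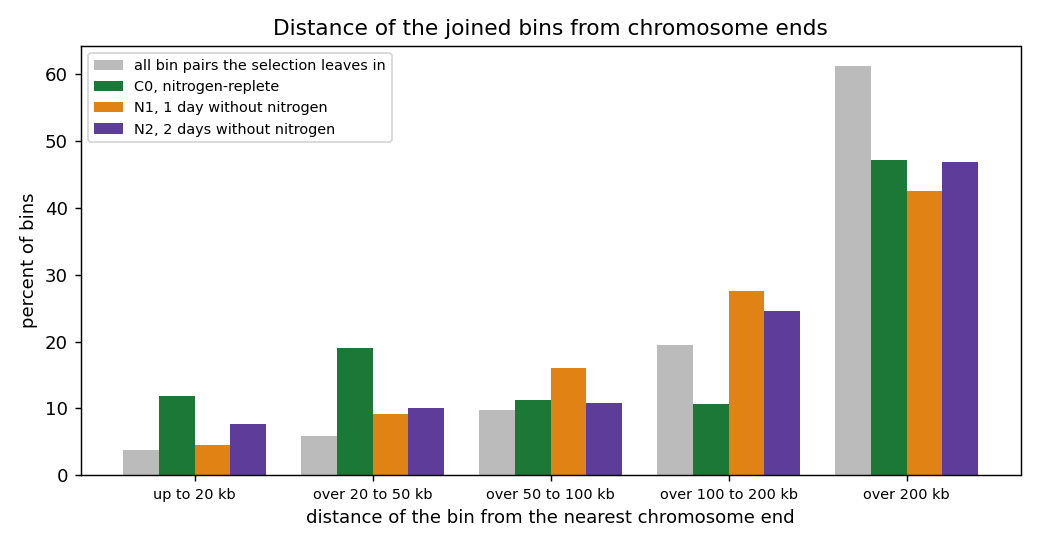
Percent of the bins of selected contacts (y axis) by distance from the nearest chromosome end (x axis), for each group and, in grey, for all bin pairs that the limits on ends and chromosomes leave in. The grey bars include bins without a usable factor, which could not be selected. All 3 groups stood above the grey bars in each class up to 100 kb, C0 by the most up to 50 kb and N1 at 50 to 100 kb. The excess was small for N1 up to 20 kb and for C0 and N2 at 50 to 100 kb, and no intervals are drawn. At 100 to 200 kb N1 and N2 stood above and C0 below.

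The selected contacts were spread over the whole genome. All 30 chromosomes had at least 1 in every group, and 196 of the 432 possible chromosome pairs had at least 1 over the groups, 122 of them in 1 group only, 58 in 2 and 16 in all 3. Within a group, 66 of the 76 chromosome pairs in C0, 74 of 80 in N1 and 99 of 130 in N2 had a single contact. The leading chromosome pairs over the groups were chromosomes 3 and 24, with 2 contacts in C0, 1 in N1 and 5 in N2, where chromosome lengths would give 0.227, 0.222 and 0.446. In the same order, 4, 0 and 3 contacts joined chromosomes 1 and 4, 1, 1 and 4 joined chromosomes 1 and 7, 2, 3 and 1 joined chromosomes 2 and 19, and 0, 2 and 4 joined chromosomes 24 and 25. The counts of single chromosome pairs were too low to tell the groups apart, since the 95% Poisson interval of a count this small spans several-fold.

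Chromosome 24, which is 0.7 Mb long, had more selected contacts under ND than its length gives. It took part in 7 of 89 contacts in C0 (7.87%, 3.22% to 15.5%), 14 of 87 in N1 (16.1%, 9.09% to 25.5%) and 30 of 175 in N2 (17.1%, 11.9% to 23.6%), against 4.64% of possible bin pairs by length. The length shares of chromosomes count all bins, also those without a usable factor, and do not leave out pairs of 2 ends. The interval of C0 overlapped those of both ND groups, and 8 of the 14 contacts of N1 were also listed at N2. The ratio to length was 1.70, 3.47 and 3.69. It was the highest of the 30 chromosomes at N1 and N2, ahead of chromosome 22 at N1 (2.95) and chromosome 25 at N2 (1.64), and the third highest at C0, behind chromosomes 28 (2.02) and 18 (1.72). With at least 5 contacts it was in 2 of 35 pairs in C0 (5.71%), 7 of 32 in N1 (21.9%) and 15 of 69 in N2 (21.7%).

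These contacts did not come from a single place on chromosome 24. They used 7 bins with partners on 6 chromosomes at C0, 14 bins and 12 chromosomes at N1, and 28 bins and 16 chromosomes at N2, where 11 of 30 lay in the first 100 kb. Chromosome 24 held 8 of the 33 pairs shared by N1 and N2. It was not rich in cis-interactions, with 97.1 per Mb at C0, the lowest of all chromosomes, 27.1 at N1 and 149 at N2, against chromosome medians of 140, 28.8 and 163. Besides chromosome 24, the interval lay above the length share for chromosomes 22 and 25 at N1 and for chromosome 1 at N2, which had 28 contacts (16%), and below it for chromosome 16 at N1, with 1 contact, and for chromosomes 4 and 9 at N2, with 9 and 6. At C0 every interval held the length share. Some of the intervals may fall outside by counting error alone, and the chromosomes were not tested.

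**Figure D4:**
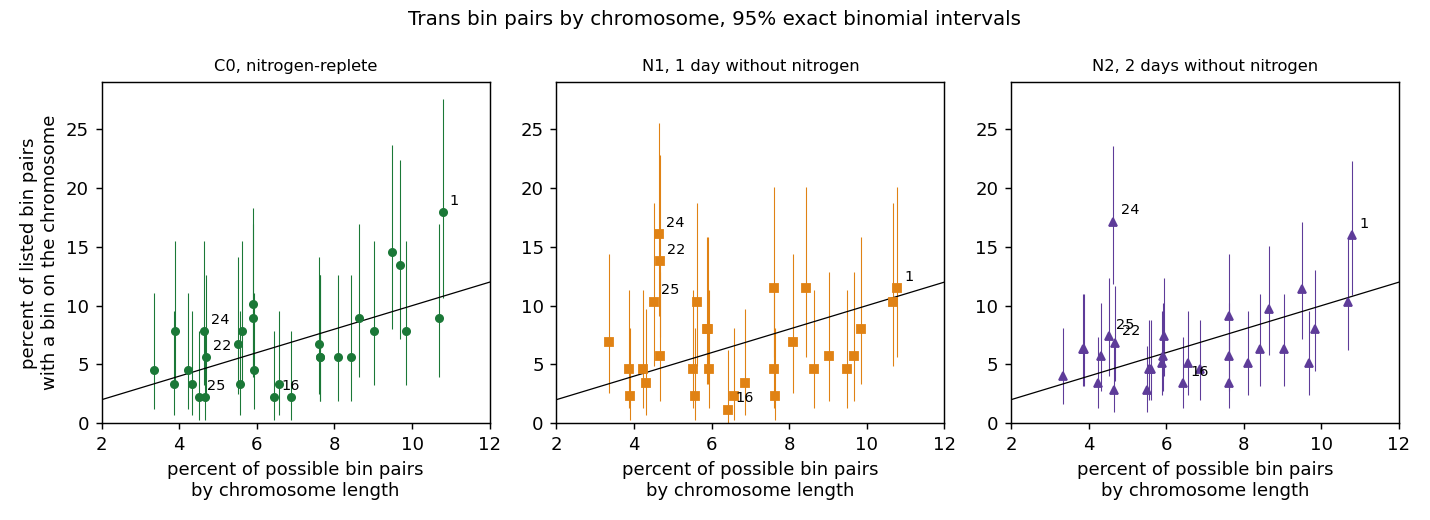
Percent of selected contacts with a bin on each chromosome (y axis) against the percent of possible bin pairs given by its length (x axis), with exact binomial 95% intervals; 1 point per chromosome, 1 panel per group, and the line marks equal shares. Chromosome 24 stood above the line with its whole interval at N1 and N2. At C0 its interval held the line and overlapped those of N1 and N2.

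The cis lists entered the selection only through the highest listed position of each chromosome, and the groups differed in how many of the bins had a cis-interaction. A listed cis-interaction was found for 88 of 169 bins of the selected contacts at C0 (52.1%, 44.3% to 59.8%), for 14 of 169 at N1 (8.28%, 4.60% to 13.5%) and for 124 of 331 at N2 (37.5%, 32.2% to 42.9%). Of all bins of the genome, including those without a usable factor, 15.5%, 5.30% and 16.1% had one. The bins were thus more often in the cis list than all bins at C0 and N2, while at N1 the interval held the genome value. This was not particular to the selected contacts, since the bins of the other trans-interactions with usable factors had a cis-interaction more often in each group, in 73.2% of 299 cases at C0, in 33.3% of 12 at N1 and in 63.4% of 112 at N2. With cis-interactions of at least 10 kb only, the shares were 24.3%, 0.592% and 19.9%, against 4.37%, 0.274% and 5.22% of all bins. The N1 share was 1 of 169 bins, and its interval (0.0150% to 3.25%) held the genome value.

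The N1 cis list was the shortest of the 3, so the bins were also looked up in the cis lists of the other groups. The bins of C0 contacts were in the cis list of N2 in 40.2% of cases, and those of N2 contacts in that of C0 in 33.2%. The bins of N1 contacts were in the cis list of C0 in 15.4% and in that of N2 in 14.8%, close to the 15.5% and 16.1% of all bins. Bins over 100 kb from an end gave nearly the same shares as all selected bins, 50%, 8.40% and 35.8% in the list of their own group. Both bins of a contact had a cis-interaction in 28 contacts at C0 (31.5%), none at N1 and 38 at N2 (21.7%).

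For a few of the bins with high counts, chosen after their values were seen, the cis lists were looked up one by one. The bins of the pair on chromosomes 5 and 7, the chromosome 1, 12 and 29 bins of the triangle, and chr18:67001-68000 had no listed cis-interaction in any group. The bin of chromosome 30 in the pair with chromosome 24 had 3, 1 and 3 cis-interactions at C0, N1 and N2, and that of chromosome 24 had 1, none and 2. The bin chr7:4001-5000, of the pair with 25 contacts, had 3 at C0 and none at N1 and N2. Repeats and mappability of these bins were not analysed here, because no genome sequence was used.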

How the data were processed

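Hi-C libraries of 2 replicates each of C0, N1 and N2 were sequenced. Per the paper's methods, reads were trimmed with Trimmomatic and aligned to the V2 assembly of IMET1, filtered to valid pairs and pooled over replicates, and Fit-Hi-C was then used to call interactions. The methods give 10-kb bins, whereas the lists hold 1-kb bins, and they speak of both 2 and 3 replicates. The deposited contact counts are raw read pairs of the pooled replicates, with no scaling to depth. Each deposited p-value and q-value comes from the authors' Fit-Hi-C run, with pairs kept above 2 contacts and below 0.01 for both. The bias factor of each bin is a deposited score, between 0.5 and 2, with -1 where a factor is not usable. The authors' 4 lists of shared interactions were not used, and overlaps were computed from the 6 lists.

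From the counts and p-values, the expected count was recovered as the Poisson mean whose upper tail gives the p-value, and divided by both factors it gave 1 value per group, the measure of depth. The recovery was tested on simulated data. Chromosome length is the highest listed position, and bin positions are counted from 1. A fold interval is the exact Poisson interval of the count over the expected count. The items named were taken from the 10 highest counts of each group, pairs in 2 or more groups, the 5 leading chromosome pairs and the 5 bins with most partners, ties included; not all are described. Also named are items chosen after their values were seen: the single chromosomes, the chromosome 1 and chromosome 4 loci and the connected sets. The contacts and these choices were selected with earlier results of these data known. The alternatives were other limits on q-value, count, depth, bias factors, end width, merging and matching. An end of 100 kb and cis shares far from ends were added after seeing the data. Python 3.11.15, numpy 2.4.6, scipy 1.17.1, pandas 2.3.3 and matplotlib 3.10.9 were used.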

Additional observations from a re-analysis of the deposited data

How the results depend on the processing

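Of 60 alternative values, 38 stayed close to the value reported and 22 moved. Stricter limits shortened the lists: the selected contacts of C0, N1 and N2 numbered 30, 61 and 91 at a q-value below 0.001, 35, 32 and 69 with at least 5 contacts, 1, 87 and 22 with the count scaled to the depth of N1 and at least 3 after scaling, and 10, 13 and 34 with both bias factors near 1. N1 had more than C0 under 3 of these limits and 3 fewer with at least 5 contacts. Under the scaled count all contacts of N1 stay by construction, because N1 sets the depth and its lowest count was 3. The q-value of a given count also depends on depth, so these 2 limits do not compare the groups. N2 had the most under all but the scaled count. With a chromosome end of 100 kb, added after seeing the data, C0 kept 56, N1 78 and N2 147. With at least 5 contacts in both groups, C0 and N1 shared 3 pairs, C0 and N2 7, and N1 and N2 14. The share with 1 bin near an end became 35.1% at C0 and 9.44% at N2 with an end of 10 kb, and 19.3% at N1 with an end of 50 kb, against 19.1% at C0 and 18.9% at N2. No positional shares are given for these widths, which change the possible pairs too. The median fold at C0 became 91.0 with at least 5 contacts and 93.9 over an average bin pair. With cis-interactions of at least 10 kb, 24.3%, 0.592% and 19.9% of the bins of C0, N1 and N2 had one, which at N1 was 1 bin of 169. The cause of these shifts was not tested, beyond the fewer pairs that a stricter limit leaves. No paired analysis was possible because the replicates of each group are pooled in its list, and for the same reason no replicate could be left out. Depth limits what can be read from a pair that was not listed, and counts of 4 carry wide counting errors.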
